A study of Ovis aries with 8 samples.

Results

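Genes for amino acid and one-carbon metabolism were followed in sheep embryonic stem cells, a cultured pluripotent cell type that was derived here from blastocyst inner cell masses. The set of 38 genes was taken by symbol and holds enzymes of serine, glycine, folate, methionine, arginine, glutamate, proline and polyamine metabolism together with 4 genes of the amino acid stress response. Of these, 37 were found among the 28475 genes of the table, and TDH was not analysed here. RNA sequencing of polyadenylated RNA had been done on 8 libraries in 4 groups of 2. The first 2 groups were naive-like cells at passage 12, converted from primed cells and grown on mouse embryonic fibroblasts (MEFs, a supporting feeder layer) or feeder-free. Their medium held human LIF and Activin A at 20 ng/mL each, PD0325901 (a MEK inhibitor) at 1 µM, XAV-939 (a tankyrase inhibitor) at 2 µM, Go6983 (a protein kinase C inhibitor) at 2 µM, CGP77675 (a SRC inhibitor) at 1.2 µM and ascorbic acid at 50 µg/mL. The other 2 groups were the wild-type primed lines A and B at passage 10. Both were grown feeder-free in NBFR medium, which held bFGF and Activin A at 20 ng/mL each, endo-IWR-1 (another tankyrase inhibitor) at 3 µM and BSA at 1%. Non-essential amino acids, a glutamine supplement and the N2 and B27 supplements were named for the primed medium and were not named for the naive-like medium. State, medium and passage changed together and cannot be told apart, and the sources used here do not name the line that was converted.

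Serine made from a glycolytic intermediate by PHGDH, PSAT1 and PSPH, or taken up from the medium, is split by the serine hydroxymethyltransferases into glycine and a carbon unit carried on folate. Folate enzymes pass that unit to purine and thymidylate synthesis or to the remethylation of homocysteine, which keeps the methionine cycle supplied with S-adenosylmethionine, the methyl donor for DNA and histones. In mouse embryonic stem cells, threonine and glycine breakdown and S-adenosylmethionine levels are known to matter for self-renewal, and proline is known to push cells out of the naive state. The transcription factor ATF4 induces many of these enzymes when amino acids run short.

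Expression was given in TPM, a transcript abundance corrected for transcript length and set to an equal sum in every library. The labels' protocol gives a nominal depth of about 20 M paired-end reads for each library, and the number of reads behind each TPM value is unknown. POU5F1, the core factor of pluripotent cells, stood at 1530 to 1710 TPM in naive-like and 610 to 662 TPM in primed libraries, and SOX2 at 293 to 323 TPM and 290 to 324 TPM. Of 8 pluripotent cell markers, 3 rose and 1 fell in naive-like cells, where 28.6% of all genes tested rose and 22.1% fell. Of the markers of other cell types tested, 5 of 5 hypoblast, 4 of 4 trophectoderm, 5 of 6 neuroectoderm and 5 of 12 fibroblast genes fell for state. In feeder-free cells 10 of the 12 fibroblast genes fell, where 25.6% of all genes tested did. The summed TPM of the hypoblast list was 483 to 543 in naive-like and 1250 to 1420 in primed libraries. The summed trophectoderm list stood at 63.0 to 70.2 TPM in naive-like and 498 to 674 TPM in primed libraries, and the neuroectoderm list at 40.0 to 65.7 TPM and 127 to 178 TPM. SOX17, a defining hypoblast marker, was listed at 0 in all naive-like libraries and in 3 of 4 primed libraries. The trophectoderm factor CDX2 was at no more than 0.0867 TPM in any library. The part of these shifts in the results on metabolic genes was not tested, and in bulk RNA fewer cells of a type and less RNA per cell cannot be told apart. Ribosomal RNA genes held 1.43 to 3.48% of TPM in naive-like and 4.42 to 6.26% in primed libraries. The labels do not say if the paired libraries were separate cultures, and p-values therefore reflect only the spread among these libraries, which may be technical.

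Most of the metabolic genes were highly expressed. Together the 37 genes held 0.495 to 0.524% of TPM in naive-like and 0.459 to 0.503% in primed libraries. The median of the mean levels lay at the 86.4th percentile of the 14779 genes tested, 28 of the 37 were at 10 TPM or more in every library, and 13 were at 100 TPM or more. Highest in TPM were AHCY, which clears S-adenosylhomocysteine after methyl transfer (677 to 762 TPM), and ODC1, the first enzyme of polyamine synthesis (637 to 834 TPM). ATF4 was at 399 to 455 TPM, GLUD1 at 290 to 479 TPM and MAT2A, which makes S-adenosylmethionine, at 220 to 410 TPM. At the other end stood GLDC, the decarboxylase of the glycine cleavage system. GLDC was at 0.0933 and 0.153 TPM in MEF, 0.321 and 0.169 TPM in feeder-free, 0.120 and 0 TPM in line A and 0.0438 and 0.0378 TPM in line B libraries. It was the single member that did not reach 1 TPM in 2 libraries, so 36 members were tested. The other proteins of the same complex were expressed, GCSH at 135 to 245 TPM, AMT at 7.78 to 21.7 TPM and DLD, added after its values were seen, at 69.6 to 88.0 TPM.

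**Figure D1:**
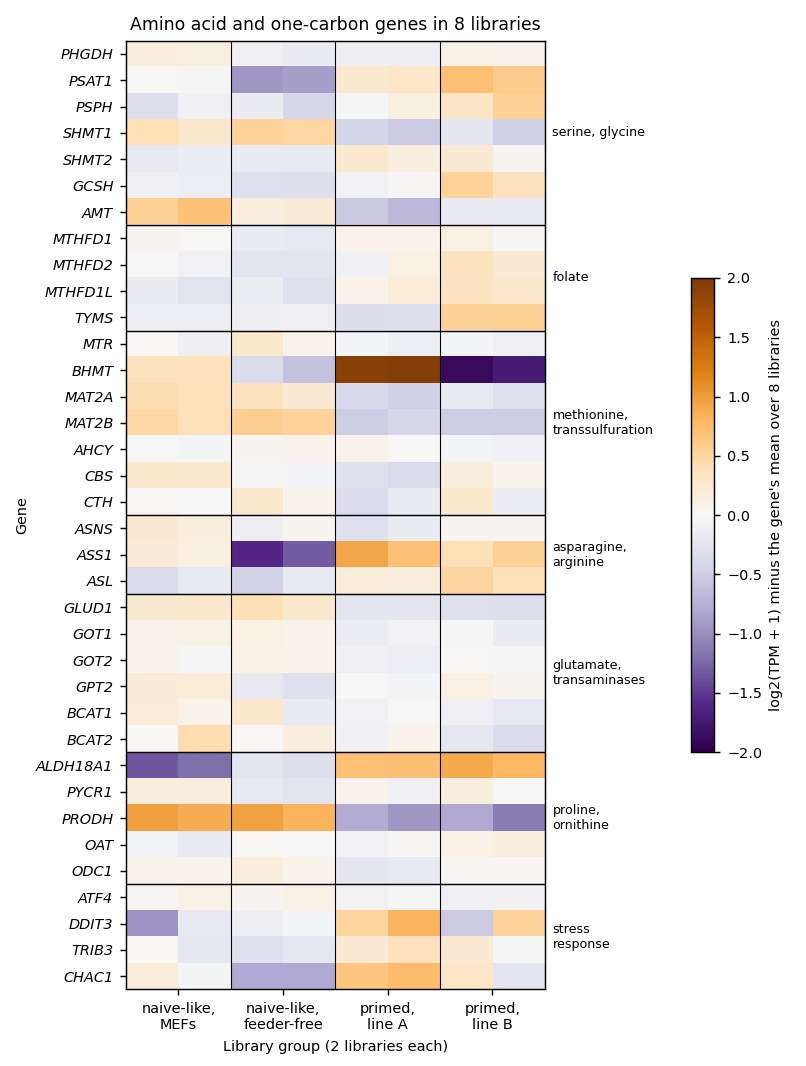
Heat map of the 36 tested genes (rows, grouped by role) in 8 libraries (columns, 2 per group); colour gives log2(TPM + 1) minus the gene's mean over the 8 libraries, with the scale ending at 2 and −2. BHMT shows its strongest colours in the 2 primed lines, and PRODH and ALDH18A1 change in opposite directions between the naive-like and primed columns.

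The comparison of state set all 4 naive-like libraries against all 4 primed ones. PRODH, MAT2B, SHMT1, AMT, MAT2A and GLUD1 were the members that rose most in naive-like cells, and ALDH18A1, ASS1, PSAT1 and ASL fell most. Tested with limma on log2(TPM + 1) with Benjamini-Hochberg adjustment over all 14779 genes, 9 members rose, 10 fell and 17 did not pass an adjusted p of 0.05. Across all genes tested 50.7% passed, 28.6% rising and 22.1% falling, so the 52.8% of members that passed was close to the share among all genes. Without feeder-free replicate 2 the falls numbered 6. The 4 libraries of a state come from 2 groups. With the libraries of each group averaged first, 5 members rose and 4 fell, and 2191 and 1832 of all genes. The median log2 change of the members was −0.02, against 0.05 over all genes, and the median size regardless of sign was 0.30 for both. After rescaling without ribosomal RNA genes, 7 members rose and 12 fell. Naive-like and primed libraries did not overlap in 17 members, 9 higher and 8 lower, where 47.7% of all genes did not overlap (26.8% higher and 20.9% lower). Changes of at least 2-fold were called in PRODH among the rises (4.78% of all genes tested) and in ALDH18A1 and ASS1 among the falls (6.02% of all genes), together 10.8% of all genes.

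The feeder-free naive-like libraries were also compared with the 4 primed libraries, which leaves MEFs out of both arms. It shares its libraries with the comparison of state, so the values of both are given side by side and do not support each other. In feeder-free naive-like cells 11 members rose, 16 fell and 9 did not pass, or 75% that passed, against 56.4% of all genes tested (30.8% rising and 25.6% falling). After rescaling without ribosomal RNA genes 7 rose and 17 fell. The change is measured from the midpoint of the 2 primed lines, and differences between the lines do not count as spread. With the 2 arms fitted alone they do, and 7 members rose and 13 fell. Among all genes 3551 rose and 3016 fell in that fit. The median change was −0.08 in log2, against 0.04 over all genes. PRODH and MAT2B rose and ASS1, PSAT1, CHAC1 and ALDH18A1 fell by at least 2-fold, where 5% of all genes rose and 7.06% fell that far, 12.1% together. Without overlap, 11 members were higher and 14 lower than all primed libraries, against 32.9% and 27% of all genes, or 59.8% together.

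**Figure D2:**
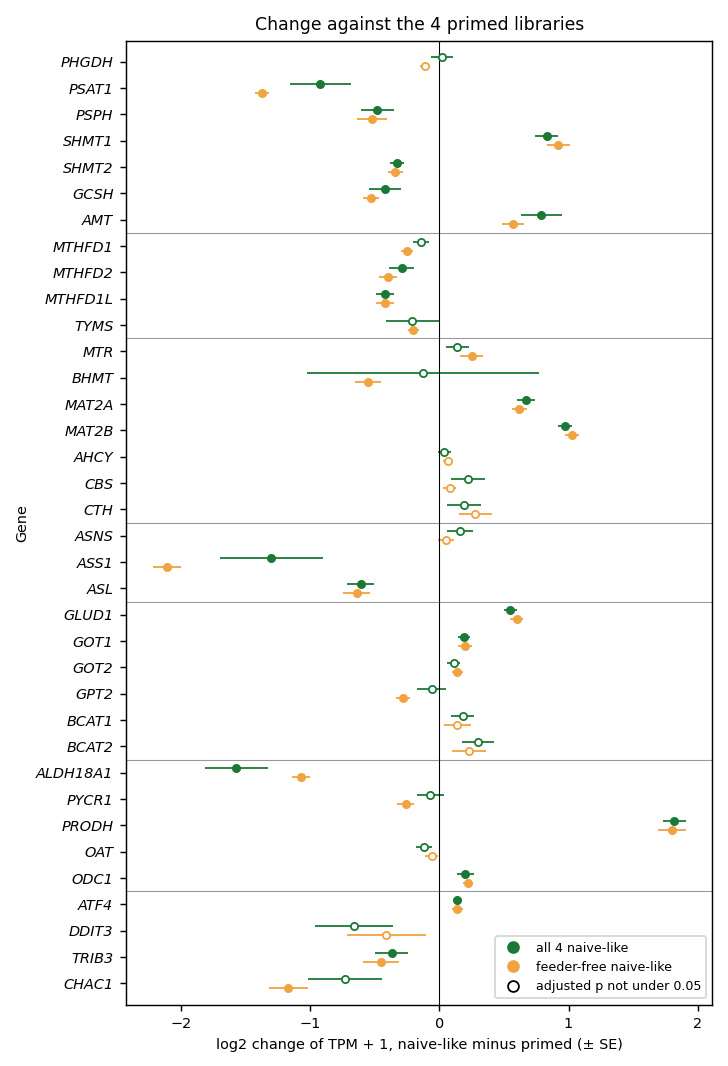
Log2 change of TPM + 1 with its standard error for each of 36 genes (vertical axis, grouped by role), for all 4 naive-like libraries (green) and the 2 feeder-free naive-like libraries (orange), each minus the 4 primed libraries; filled points had an adjusted p under 0.05. PRODH lies farthest to the right at 1.82 and 1.80, and ASS1 farthest to the left at −2.11 for feeder-free cells.

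PRODH and ALDH18A1 had the largest changes of state among the members, in opposite directions. PRODH, which oxidises proline in mitochondria, was at 34.9 and 33.0 TPM in MEF and 34.6 and 31.5 TPM in feeder-free naive-like libraries, against 9.73 and 8.48 TPM in line A and 9.53 and 7.47 TPM in line B. All 4 naive-like libraries lay above all primed libraries, and the mean was 3.81 times the primed mean. PRODH rose by 1.82 ± 0.0876 (log2, SE; adjusted p = 4.58e-07). ALDH18A1, which makes the precursor of proline from glutamate, was at 10.1 and 11.2 TPM in MEF and 22.6 and 21.7 TPM in feeder-free libraries, against 45.4 and 45.7 TPM in line A and 51.8 and 48.0 TPM in line B. Naive-like libraries were below every primed library, and those on MEFs were below the feeder-free ones. ALDH18A1 fell by 1.57 ± 0.241 in the comparison of state (adjusted p = 0.000588). Within a library, the TPM of PRODH was 2.96 to 3.44 times that of ALDH18A1 on MEFs and 1.45 to 1.53 times feeder-free, against 0.156 to 0.214 times in primed cells.

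PYCR1, a mitochondrial reductase that completes proline synthesis, did not pass in the comparison of state. It averaged 130 ± 19.6 TPM in naive-like and 136 ± 10.2 TPM in primed cells (SD, n = 4 each; adjusted p = 0.587). In feeder-free cells PYCR1 fell by 0.26 ± 0.0650 (adjusted p = 0.0101), a call that ended without feeder-free replicate 2 (adjusted p = 0.0668, within 0.00206 to 0.0668 over all alternatives). OAT, which links ornithine to proline and glutamate, averaged 177 ± 10.8 TPM against 192 ± 12.9 TPM (adjusted p = 0.152). ODC1 was at 787 to 834 TPM in naive-like and 637 to 758 TPM in primed libraries and rose by 0.20 ± 0.0661 (adjusted p = 0.0335). This call ended on leaving out either line A library or any of the 4 naive-like libraries (adjusted p = 0.0565 to 0.0881), and also with median-ratio scaling (adjusted p = 0.0664).

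In serine and glycine metabolism 2 of 7 tested members rose, 4 fell and 1 did not pass for state, where 28.6% of all genes tested rose and 22.1% fell. PSAT1, the aminotransferase of serine synthesis, was at 66.0 and 63.9 TPM in MEF and 33.5 and 35.1 TPM in feeder-free libraries, against 77.3 and 79.9 TPM in line A and 107 and 99.9 TPM in line B. Each group was separate from the next, with feeder-free cells lowest. PSAT1 fell by 0.92 ± 0.234 for state (adjusted p = 0.00947) and by 1.37 ± 0.0533 in feeder-free cells (adjusted p = 5.43e-07). PSPH, the phosphatase of the last step, averaged 23.0 ± 2.49 TPM in naive-like and 32.8 ± 5.94 TPM in primed cells (adjusted p = 0.0111). PHGDH, the first enzyme of the branch, averaged 177 ± 18.4 TPM against 174 ± 14.1 TPM and did not pass (adjusted p = 0.852). With primed line A alone as the comparison, PSAT1 and PSPH did not pass for state (adjusted p = 0.0885 and 0.0670, within ranges over all alternatives of 1e-06 to 0.0902 and 0.00238 to 0.0705). PHGDH was lower in feeder-free than in primed cells by 0.11 without passing (adjusted p = 0.0563) and passed there with median-ratio scaling (adjusted p = 0.0143, within 0.00294 to 0.921 over all alternatives).

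The cytosolic and the mitochondrial serine hydroxymethyltransferase moved in opposite directions. Cytosolic SHMT1 was at 24.2 and 21.9 TPM in MEF and 26.4 and 25.9 TPM in feeder-free libraries, against 13.2 and 12.4 TPM in line A and 15.3 and 12.8 TPM in line B. Mitochondrial SHMT2 was at 66.4 and 69.1 TPM in MEF and 67.9 and 66.5 TPM in feeder-free libraries, against 89.8 and 84.6 TPM in line A and 88.3 and 78.8 TPM in line B. Neither gene's naive-like and primed libraries overlapped. SHMT1 rose by 0.83 ± 0.0882 (adjusted p = 6.43e-05) and SHMT2 fell by 0.33 ± 0.0533 (adjusted p = 0.000742). The TPM of SHMT2 was 2.57 to 3.16 times that of SHMT1 in naive-like and 5.75 to 6.83 times in primed libraries.

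Among glycine cleavage genes the aminomethyltransferase AMT rose and the hydrogen carrier GCSH fell. AMT was at 19.5 and 21.7 TPM in MEF and 14.5 and 15.0 TPM in feeder-free libraries, against 8.65 and 7.78 TPM in line A and 11.4 and 11.3 TPM in line B, and rose by 0.79 ± 0.159 (adjusted p = 0.00271). The call of AMT ended with the libraries of each group averaged first (adjusted p = 0.0538). GCSH averaged 147 ± 13.0 TPM in naive-like and 199 ± 38.1 TPM in primed cells and fell by 0.42 ± 0.127 (adjusted p = 0.0213). The call of GCSH ended without line B replicate 2 or either feeder-free library (adjusted p = 0.0558 to 0.0570), and with line A alone as the comparison (0.106). In the other serine, glycine and threonine genes 4 of 10 tested rose and 2 fell for state, where 28.6% of all genes tested rose and 22.1% fell. GNMT, which methylates glycine with S-adenosylmethionine, averaged 41.7 ± 2.34 TPM against 14.4 ± 2.53 TPM and rose by 1.48 ± 0.115 (adjusted p = 9.27e-06). LIPT1, a lipoyltransferase, rose by 0.54 ± 0.0784. GCAT, which acts after TDH in threonine breakdown, rose by 0.31 ± 0.113 (adjusted p = 0.0462), a call that held without MEF replicate 2 and ended on leaving out any other library (adjusted p = 0.0539 to 0.121).

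Of the 4 members grouped under folate, 2 fell and 0 rose for state, where 22.1% of all genes tested fell and 28.6% rose. MTHFD1L, the mitochondrial synthetase that releases formate, was at 29.2 and 26.7 TPM in MEF and 29.4 and 26.5 TPM in feeder-free libraries, against 34.6 and 36.8 TPM in line A and 41.0 and 39.0 TPM in line B. The states did not overlap, and MTHFD1L fell by 0.42 ± 0.0698 (adjusted p = 0.000907). MTHFD2, its mitochondrial dehydrogenase partner, averaged 66.2 ± 5.81 TPM in naive-like and 81.4 ± 9.97 TPM in primed cells and fell by 0.29 ± 0.0964 (adjusted p = 0.0305). That call was lost on leaving out either line B library, either feeder-free library or line A replicate 2 (adjusted p = 0.0533 to 0.0801), and with line A alone as the comparison (0.210). MTHFD1, the trifunctional cytosolic enzyme, averaged 145 ± 12.6 TPM against 160 ± 3.98 TPM and did not pass (adjusted p = 0.0864), although it did without MEF replicate 1 (adjusted p = 0.0406). The range for MTHFD1 over all alternatives was 0.00954 to 0.309. In feeder-free cells MTHFD1 fell by 0.25 ± 0.0451 (adjusted p = 0.00195). TYMS, which makes thymidylate, differed between the primed lines and is described with them.

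Of 14 other folate genes tested for state, 4 rose and 3 fell, or 50% that passed, against 50.7% of all genes tested. ALDH1L1, which oxidises formyl-folate in the cytosol, was at 30.8 to 41.0 TPM in naive-like and 8.58 to 17.2 TPM in primed libraries and rose by 1.50 ± 0.224 (adjusted p = 0.000499). MTFMT, which formylates the mitochondrial initiator tRNA, rose by 0.49 ± 0.0897, FPGS, which adds glutamates to folate, by 0.46 ± 0.0892 and MTHFS by 0.38 ± 0.0917. The falls, named after their values were seen, were in the folate carriers SLC19A1 (−1.43, adjusted p = 0.00408) and SLC46A1 (−0.41, adjusted p = 0.0211) and in ATIC of purine synthesis (−0.21, adjusted p = 0.0167). In the feeder-free comparison 4 of the 14 rose and 6 fell, where 30.8% of all genes tested rose and 25.6% fell. The falls there included GART of purine synthesis (−0.21 ± 0.0531, adjusted p = 0.00953). The calls of FPGS and GART there ended without feeder-free replicate 2 (adjusted p = 0.0724 and 0.0622). GART was lower than line A alone by 0.07 without passing (adjusted p = 0.400), and its adjusted p ran from 0.000732 to 0.400 over all alternatives.

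Both genes of methionine adenosyltransferase II rose. MAT2A, the catalytic subunit, was at 410 and 394 TPM in MEF and 385 and 359 TPM in feeder-free libraries, against 233 and 220 TPM in line A and 271 and 248 TPM in line B. MAT2B, the regulatory subunit, was at 102 and 95.3 TPM in MEF and 109 and 106 TPM in feeder-free libraries, against 50.9 and 54.6 TPM in line A and 51.1 and 51.1 TPM in line B. For each gene all naive-like libraries lay above all primed ones. MAT2A rose by 0.67 ± 0.0703 (adjusted p = 5.76e-05) and MAT2B by 0.97 ± 0.0551 (adjusted p = 1.27e-06). AHCY averaged 731 ± 24.5 TPM in naive-like and 714 ± 37.6 TPM in primed cells (adjusted p = 0.572). MTR, which remethylates homocysteine with methyl-folate, averaged 12.0 ± 1.43 TPM against 10.8 ± 0.351 TPM (adjusted p = 0.232). In feeder-free cells MTR rose by 0.25 ± 0.0877 (adjusted p = 0.0411), a call that held without feeder-free replicate 2 and ended on leaving out any other library (adjusted p = 0.0555 to 0.232), and after rescaling without ribosomal RNA genes (adjusted p = 0.0885). The transsulfuration enzymes CBS (112 ± 12.6 TPM against 97.3 ± 18.1 TPM) and CTH (16.7 ± 1.67 TPM against 14.7 ± 2.98 TPM) did not pass for state. CTH passed without line B replicate 1 (0.31, adjusted p = 0.0326, within 0.0326 to 0.902 over all alternatives), and in the feeder-free comparison likewise (0.38, adjusted p = 0.0194).

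Of 19 other methionine and polyamine genes tested for state, 5 rose and 7 fell, where 28.6% of all genes tested rose and 22.1% fell. Spermidine synthase SRM was at 82.6 to 89.2 TPM in naive-like and 39.9 to 46.9 TPM in primed libraries and rose by 0.99 ± 0.0594 (adjusted p = 1.8e-06). AMD1, which makes the aminopropyl donor for that step from S-adenosylmethionine, rose by 0.54 ± 0.0586 (adjusted p = 7.03e-05). Spermine oxidase SMOX fell by 0.62 ± 0.0828 and OAZ2, an antizyme that inhibits ornithine decarboxylase, by 0.42 ± 0.0601.

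ASS1 and ASL, the consecutive enzymes that make arginine from citrulline, both fell. ASS1 was at 16.0 and 15.2 TPM in MEF and 3.90 and 4.94 TPM in feeder-free libraries, against 27.2 and 23.4 TPM in line A and 18.6 and 20.9 TPM in line B. ASL was at 11.4 and 13.1 TPM in MEF and 10.6 and 13.0 TPM in feeder-free libraries, against 17.2 and 17 TPM in line A and 21.8 and 19.7 TPM in line B. Naive-like libraries lay below primed ones for both genes, and for ASS1 the feeder-free pair was far below the pair on MEFs. ASS1 fell by 1.30 ± 0.396 for state (adjusted p = 0.0213) and by 2.11 ± 0.108 in feeder-free cells (adjusted p = 2.21e-06), and ASL fell by 0.61 ± 0.103 for state (adjusted p = 0.000981). Leaving out feeder-free replicate 2 or line A replicate 1 ended the call of ASS1 for state (adjusted p = 0.0587 and 0.0531), and it did not pass against either primed line alone (0.0613 for line A and 0.130 for line B). ASNS, asparagine synthetase and a known ATF4 target, averaged 124 ± 12.4 TPM against 111 ± 12.8 TPM (adjusted p = 0.200).

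Of the 6 glutamate and transaminase members 2 rose, 0 fell and 4 did not pass for state. That is 33.3% that passed, against 50.7% of all genes tested (28.6% rising and 22.1% falling). GLUD1, which deaminates glutamate to feed the citric acid cycle, was at 424 and 427 TPM in MEF and 479 and 427 TPM in feeder-free libraries, against 306 and 306 TPM in line A and 292 and 290 TPM in line B. Every naive-like library was above every primed one, and GLUD1 rose by 0.55 ± 0.0513 (adjusted p = 2.72e-05). Cytosolic aspartate aminotransferase GOT1 averaged 73.7 ± 1.12 TPM against 64.5 ± 2.55 TPM and rose by 0.19 ± 0.0470 (adjusted p = 0.00819). Its mitochondrial counterpart GOT2 averaged 219 ± 8.19 TPM against 202 ± 7.54 TPM and did not pass (adjusted p = 0.0751). The branched-chain aminotransferases BCAT1 (280 ± 34.8 TPM against 246 ± 13.2 TPM) and BCAT2 (11.2 ± 1.73 TPM against 8.88 ± 1.21 TPM) did not pass either, nor did GPT2, the mitochondrial alanine aminotransferase (85.2 ± 15.1 TPM against 88.0 ± 4.55 TPM). Leaving out 1 library brought a rise of GOT2 (without MEF replicate 2, adjusted p = 0.0495), BCAT1 (without feeder-free replicate 2, 0.00757) and BCAT2 (without line A replicate 2, 0.0420). BCAT1 also passed in the feeder-free comparison without feeder-free replicate 2 (adjusted p = 0.00515). In feeder-free cells GPT2 fell by 0.28 ± 0.0521 (adjusted p = 0.00227). GOT1 and GOT2 rose there by 0.20 ± 0.0540 and 0.14 ± 0.0454. The call of GOT1 ended without feeder-free replicate 1 (adjusted p = 0.0731), and that of GOT2 without either line A library, either feeder-free library or line B replicate 2 (adjusted p = 0.0521 to 0.137). Under quantile normalization neither passed (adjusted p = 0.0715 for GOT1 and 0.585 for GOT2).

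Among 10 other glutamine, proline and arginine genes tested for state, 6 rose and 1 fell, where 28.6% of all genes tested rose and 22.1% fell. Glutamine synthetase GLUL averaged 367 ± 11.1 TPM in naive-like and 257 ± 5.09 TPM in primed cells and rose by 0.51 ± 0.0401 (adjusted p = 9.94e-06). CAD of pyrimidine synthesis rose by 0.35 ± 0.0629, and mitochondrial arginase ARG2 fell by 0.36 ± 0.0724. In the feeder-free comparison 6 of these genes rose and 2 fell, where 30.8% of all genes tested rose and 25.6% fell. The rises there included GPT, the cytosolic alanine aminotransferase (0.65 ± 0.129, adjusted p = 0.00316). Of 13 other branched-chain genes 4 fell and 0 rose for state, or 30.8% that passed, against 50.7% of all genes tested. The falls were in the dehydrogenase subunit BCKDHA (−0.29 ± 0.0749), its kinase BCKDK (−0.35 ± 0.0764), AUH of leucine breakdown (−0.40 ± 0.0920) and ACAD8 of valine breakdown. ACAD8 fell by 0.26 ± 0.0883, a call that held without line B replicate 2 or feeder-free replicate 2 and ended on leaving out any other library (adjusted p = 0.0580 to 0.0917). In feeder-free cells 5 of the branched-chain genes fell and BCKDHB rose by 0.28 ± 0.0604, or 46.2% that passed, against 56.4% of all genes tested. The call of AUH there ended without feeder-free replicate 2 (adjusted p = 0.0756), and BCKDHB did not pass against line B alone (0.09, adjusted p = 0.331).

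The 4 stress-response members did not move together. ATF4 mRNA was at 434 and 455 TPM in MEF and 441 and 455 TPM in feeder-free libraries, against 405 and 417 TPM in line A and 402 and 399 TPM in line B. Its naive-like libraries lay above the primed ones by a small margin, and ATF4 rose by 0.14 ± 0.0379 (adjusted p = 0.0134). Median-ratio scaling ended that call (adjusted p = 0.194), as did quantile normalization and rescaling without ribosomal RNA genes (adjusted p = 0.0650 and 0.0799). In feeder-free cells ATF4 rose by 0.14 ± 0.0397 (adjusted p = 0.0158), which ended without feeder-free replicate 2 (adjusted p = 0.0891) and under the same scalings (0.107 to 0.162). ATF4 is controlled largely at translation, so its mRNA is not a measure of its activity. CHAC1, a glutathione-degrading enzyme induced by ATF4, was at 10.1 and 8.55 TPM in MEF and 4.60 and 4.60 TPM in feeder-free libraries, against 14.4 and 15.6 TPM in line A and 10.9 and 7.17 TPM in line B. Naive-like cells on MEFs overlapped with line B, and feeder-free cells were below all other libraries. CHAC1 did not pass for state (−0.73 ± 0.287, adjusted p = 0.0601) and fell by 1.17 ± 0.150 in feeder-free cells (adjusted p = 0.000325). For state it passed without line B replicate 2 or MEF replicate 1 (adjusted p = 0.0208 and 0.0282, within 0.00116 to 0.386 over all alternatives).

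DDIT3, the stress factor CHOP, was at 0.935 and 2.30 TPM in MEF and 2.5 and 2.63 TPM in feeder-free libraries, against 4.35 and 5.64 TPM in line A and 1.63 and 4.42 TPM in line B. The states overlapped and DDIT3 did not pass (adjusted p = 0.0996), except without line B replicate 1 (−0.94, adjusted p = 0.0100) and with line A alone as the comparison (−0.99, adjusted p = 0.0228). TRIB3, a pseudokinase induced by CHOP and ATF4, was low throughout, at 0.484 to 0.843 TPM in naive-like and 0.807 to 1.35 TPM in primed libraries. Its fall of 0.37 ± 0.130 for state (adjusted p = 0.0400) ended without either line A library, either feeder-free library, MEF replicate 2 or line B replicate 1 (adjusted p = 0.0758 to 0.102), and under quantile normalization (adjusted p = 0.0519). Its fall of 0.45 ± 0.140 in feeder-free cells (adjusted p = 0.0258) ended without either feeder-free library, line B replicate 1 or line A replicate 2 (adjusted p = 0.0614 to 0.119).

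Of 20 other regulators of the integrated stress response, 11 rose and 3 fell for state, where 28.6% of all genes tested rose and 22.1% fell. ATF5, a factor downstream of the same pathway, was at 49.5 to 58.0 TPM in naive-like and 6.48 to 9.85 TPM in primed libraries and rose by 2.65 ± 0.112 (adjusted p = 2.22e-07). ATF3 averaged 16.8 ± 3.38 TPM against 7.63 ± 1.49 TPM and rose by 1.04 ± 0.161, and CEBPG, a dimer partner of ATF4, rose by 0.54 ± 0.0814. DDIT4, an inhibitor of mTORC1 that is also a hypoxia target, was at 87.2 to 107 TPM in naive-like and 346 to 432 TPM in primed libraries and fell by 2.00 ± 0.0989 (adjusted p = 5.57e-07). HSPA5, the chaperone of the endoplasmic reticulum, rose by 0.86 ± 0.0437 in feeder-free cells (adjusted p = 2.14e-06). Of 20 cytosolic tRNA synthetases 9 rose and 2 fell for state, or 55% that passed, against 50.7% of all genes tested. The feeder-free comparison, which shares libraries with that of state, gave the same counts, against 56.4% of all genes (30.8% rising and 25.6% falling). VARS1 (0.56 ± 0.0493), FARSB (0.60 ± 0.0684), FARSA (0.50 ± 0.0519) and HARS1 (0.46 ± 0.0534) led the rises.

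**Figure D3:**
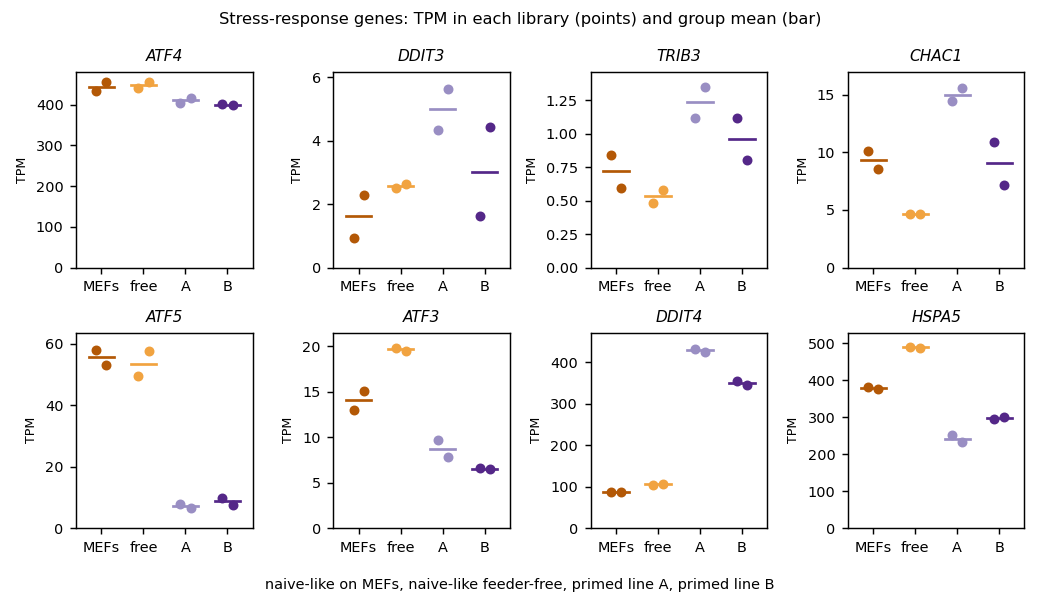
TPM (vertical axes, linear from 0) of the 4 stress-response members and 4 other stress regulators in each library (points) with the group mean (bar), for naive-like cells on MEFs, naive-like feeder-free cells, primed line A and primed line B. ATF5 stands above 49 TPM in all naive-like libraries and below 10 TPM in all primed ones, while CHAC1 is lowest in feeder-free cells.

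Naive-like cells on MEFs were compared with feeder-free naive-like cells to describe the difference with feeders. ASS1 of arginine synthesis, PSAT1 and PHGDH of serine synthesis and CHAC1 were higher on MEFs, and ALDH18A1 of proline synthesis was lower. ASS1 was 3.52 times as high on MEFs, a rise of 1.62 ± 0.125 (adjusted p = 0.000389). PSAT1 rose by 0.90 ± 0.0616 (adjusted p = 0.000209) at 1.89 times the feeder-free mean, and ALDH18A1 fell by 0.99 ± 0.0778 (adjusted p = 0.00042) to 0.480 of it. In all, 9 members rose, 1 fell and 26 did not pass, so 27.8% of members passed where 5.16% of all genes tested did (2.89% rising and 2.27% falling). The rises numbered 2 without either MEF library, 5 or 4 without feeder-free replicate 1 or 2, and 3 when the naive-like libraries were fitted alone, and the 1 fall was called in each of these. The median change was 0.06 in log2 against 0.02 over all genes. Of the 10 calls only the rise of ASS1 reached 2-fold on the log2(TPM + 1) scale, as 0.893% of all genes did upward, 0.142% downward and 1.04% together. In 26 members the groups did not overlap, 15 higher and 11 lower on MEFs, where 52.6% of all genes did not (28.7% higher and 23.9% lower).

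The other rises on MEFs were smaller. BHMT, which remethylates homocysteine with betaine, was at 10.5 and 10.6 TPM on MEFs against 5.99 and 4.99 TPM feeder-free, a rise of 0.84 ± 0.115 (adjusted p = 0.00725). CHAC1 rose by 0.88 ± 0.173 (adjusted p = 0.0296), AMT by 0.45 ± 0.0944 (adjusted p = 0.0368) and GPT2 by 0.44 ± 0.0602 (adjusted p = 0.00733). PYCR1 rose by 0.37 ± 0.0751, CBS by 0.28 ± 0.0566 and PHGDH by 0.26 ± 0.0474. The calls of ASS1, PSAT1 and ALDH18A1 held whichever single library was left out. Those of BHMT and GPT2 ended without either MEF library (adjusted p = 0.0618 to 0.0719). Calls of PYCR1 and CBS ended on leaving out any of the 4 naive-like libraries (adjusted p = 0.0658 to 0.198), that of PHGDH without feeder-free replicate 2 or either MEF library (0.102 to 0.163), that of CHAC1 on leaving out either line A library or any naive-like library (0.0598 to 0.178) and that of AMT on leaving out any of the 8 libraries (0.0523 to 0.221).

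Most fibroblast markers tested were higher on MEFs than feeder-free. The summed TPM of 15 fibroblast genes was 326 in both MEF libraries, against 122 to 134 in feeder-free naive-like libraries, and 290 to 346 in primed libraries, which had no feeders. Of 12 fibroblast genes tested 5 rose and 1 fell on MEFs, where 2.89% of all genes tested rose and 2.27% fell. The fall was in LUM, at 12.1 TPM on average on MEFs against 18.8 TPM feeder-free (−0.59 ± 0.106, adjusted p = 0.0209). DCN (0.42 against 0.816 TPM) and THY1 (8.29 against 9.83 TPM) were also lower on average on MEFs, without passing. COL1A2, a fibrillar collagen chain, was at 39.0 and 37.0 TPM on MEFs and at 0.0468 and 0.219 TPM feeder-free, and the mesenchymal factor PRRX1 was at 6.84 and 8.54 TPM against 0 and 0.0267 TPM. FAP, a fibroblast surface protease, was listed at 0 in all libraries except MEF replicate 2 (0.0518 TPM). Of 6 neuroectoderm genes tested 1 rose, SIX3, at 23.5 TPM on average on MEFs against 5.40 TPM feeder-free (1.95 ± 0.124, adjusted p = 0.000145). By limma 0 of 8 pluripotent, 0 of 5 hypoblast, 0 of 4 trophectoderm and 0 of 10 proliferation markers passed. In that order 3, 3, 0 and 1 had an unadjusted p under 0.05. The part of MEF RNA in the rises of metabolic genes was not tested, nor was that of the change in SIX3.

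The other lists are read against the 5.16% of all genes tested that passed with MEFs. By limma 0 of 13 branched-chain genes, 0 of 20 tRNA synthetases, 0 of 10 glutamine, proline and arginine genes and 0 of 10 glycine, serine and threonine genes passed, and 2, 5, 1 and 0 of them in that order had an unadjusted p under 0.05. Of 7 thymidylate and deoxynucleotide genes 0 passed by limma, and 0 had an unadjusted p under 0.05. Of 14 other folate genes 2 rose and 2 fell. The rises, named after their values were seen, were in the carrier SLC19A1 (2.54 TPM on average on MEFs against 0.619 TPM, adjusted p = 0.0146) and mitochondrial ALDH1L2 (4.06 TPM against 1.83 TPM, adjusted p = 0.0252). The folate hydrolase GGH fell by 0.40 ± 0.0804 (adjusted p = 0.0316), which ended on leaving out any library other than feeder-free replicate 1 (adjusted p = 0.0537 to 0.194). ALDH1L1 fell by 0.34 ± 0.0768 (adjusted p = 0.0479), which ended on leaving out any of the 8 libraries (adjusted p = 0.0705 to 0.264). SAT1, which acetylates polyamines for export, fell by 0.47 ± 0.0766 (adjusted p = 0.0148) as the single call among 19 methionine and polyamine genes. Among 20 stress regulators 3 fell on MEFs, HSPA5 by 0.36 ± 0.0504, DDIT4 by 0.27 ± 0.0454 and XBP1 by 0.23 ± 0.0495. SAT1, HSPA5 and DDIT4 missed the threshold without either MEF library (adjusted p = 0.0629 to 0.138), DDIT4 also without feeder-free replicate 2 (0.0765), and XBP1 on leaving out any of the 8 libraries (0.0606 to 0.221).

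The primed lines A and B, grown in the same medium to the same passage, differed most in BHMT. BHMT was at 33.1 and 34.3 TPM in line A and at 1.46 and 1.75 TPM in line B, 21.0 times as high by the means. It was higher in line A by 3.74 ± 0.115 (adjusted p = 1.74e-06), a change larger in size than that of 99.8% of all genes tested. Naive-like libraries lay between the lines, at 10.5 and 10.6 TPM on MEFs and 5.99 and 4.99 TPM feeder-free, so that feeder-free cells were lower than line A by 2.42 ± 0.115 (adjusted p = 2.26e-06) and higher than line B by 1.32 ± 0.115 (adjusted p = 5.03e-05). For state BHMT did not pass (−0.13 ± 0.898, adjusted p = 0.916). Its fall of 0.55 ± 0.0996 in feeder-free cells against both lines is measured from the midpoint of lines that differ and ended when the 2 arms were fitted alone, so that the difference between lines counted as spread (adjusted p = 0.738). The TPM of BHMT was 2.97 and 3.30 times that of MTR in line A, 0.131 and 0.164 times in line B, and 0.409 to 1.01 times in naive-like libraries.

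TYMS was the second large difference between lines. It was at 121 and 123 TPM in line A and at 223 and 226 TPM in line B, and lower in line A by 0.87 ± 0.0452 (adjusted p = 2.55e-05). Naive-like libraries were close to each other at 141 to 144 TPM and lay between the lines, higher than line A by 0.23 ± 0.0452 and lower than line B by 0.64 ± 0.0452 in feeder-free cells (adjusted p = 0.00349 and 1.57e-05). Against the midpoint of both lines feeder-free cells were lower by 0.20 ± 0.0392 (adjusted p = 0.00276), which ended when the 2 arms were fitted alone (adjusted p = 0.594). Between the lines 0 of 10 proliferation markers passed by limma, 2 had an unadjusted p under 0.05, and their summed TPM was 2110 and 2120 in line A and 2260 and 2210 in line B. Markers of other cell types also differed between the lines, where 7.36% of all genes tested passed. The neural progenitor filament NES was at 74.6 and 66.6 TPM in line A against 14.6 and 12.7 TPM in line B (adjusted p = 8.26e-06), and the neural factor SOX1 was lower in line A, at 7.74 and 7.19 TPM against 11.8 and 12.8 TPM (adjusted p = 0.0199). The keratins KRT8 (adjusted p = 0.0279) and KRT18 (adjusted p = 0.0434) of the trophectoderm list, with 4 genes tested, and the collagen COL1A2 (adjusted p = 0.0247) of 12 fibroblast genes were higher in line A. Of 8 pluripotent cell markers SALL4 was lower in line A (adjusted p = 0.0114), and 0 of 5 hypoblast genes passed by limma, 2 of them with an unadjusted p under 0.05. The summed trophectoderm list stood at 674 and 642 TPM in line A against 498 and 508 TPM in line B. Unlike the keratins, ELF5 (4.94 against 8.07 TPM on average) and TEAD4 (8.77 against 10.8 TPM) were lower in line A, and neither passed. The summed neuroectoderm list stood at 178 and 167 TPM in line A against 133 and 127 TPM in line B. In that list NES was higher in line A and SIX3 overlapped (44.6 against 43.1 TPM). SOX1, PAX6 (7.66 against 11.1 TPM), RAX (6.6 against 7.98 TPM) and LHX2 (35.4 against 42.2 TPM) were lower, and of these only SOX1 passed. The part of these markers in the differences between lines was not tested. Of 7 other thymidylate and deoxynucleotide genes, SAMHD1, which degrades deoxynucleotides, was lower in line A by 0.32 ± 0.0468 (adjusted p = 0.0068), a call that ended without line A replicate 1 (adjusted p = 0.0524). For state 3 of these 7 genes rose (TK1 by 0.28 ± 0.0621, DTYMK by 0.25 ± 0.0620 and DUT by 0.20 ± 0.0448) and SAMHD1 fell by 0.29 ± 0.0839. Of the 10 proliferation markers 5 rose and 2 fell, where 28.6% of all genes tested rose and 22.1% fell.

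**Figure D4:**
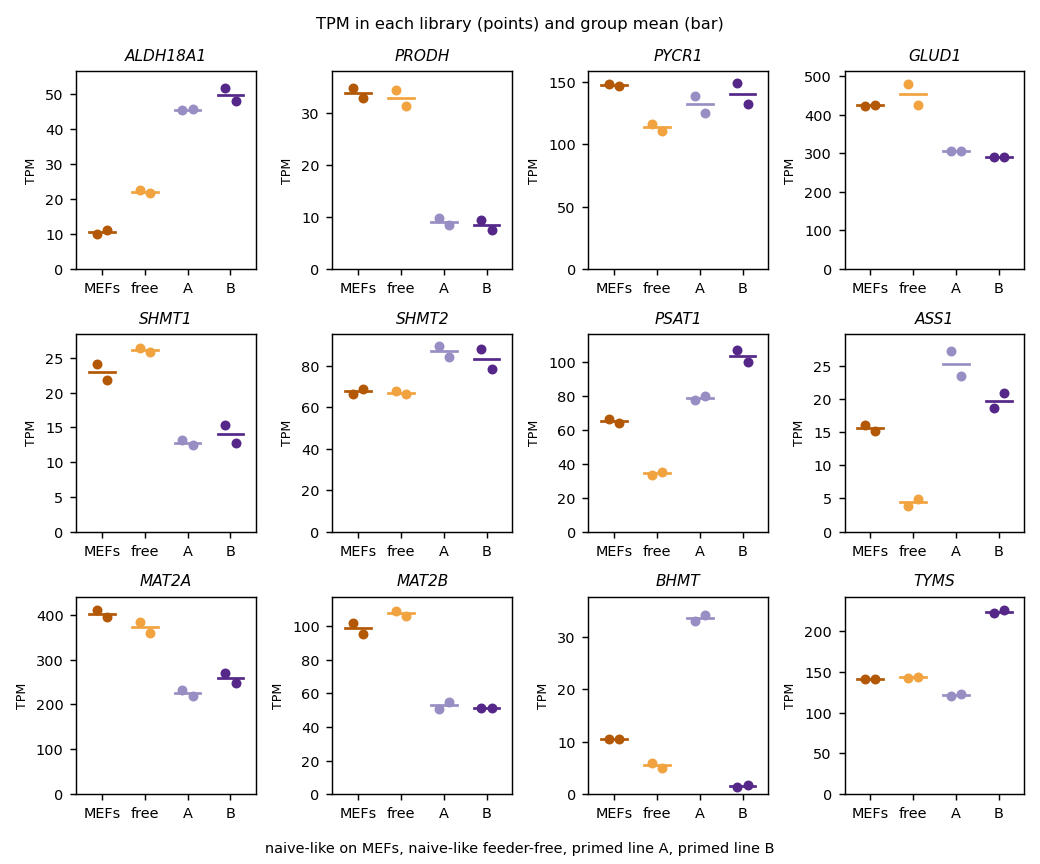
TPM (vertical axes, linear from 0) of 12 genes in each library (points) with the group mean (bar), for naive-like cells on MEFs, naive-like feeder-free cells, primed line A and primed line B. PRODH, GLUD1, SHMT1, MAT2A and MAT2B are higher in all naive-like libraries, and BHMT and TYMS in naive-like libraries lie between the primed lines.

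Most other differences between the lines ran toward lower values in line A. Of 36 members 1 was higher and 7 were lower in line A and 28 did not pass, 22.2% against 7.36% of all genes tested (3.17% higher and 4.18% lower). The members lower in line A numbered 2 and 4 without line A replicate 1 and 2, 3 and 4 without line B replicate 1 and 2, and 3 when the primed libraries were fitted alone. Among the calls over all libraries BHMT alone differed by at least 2-fold, as 0.954% of all genes did upward, 0.765% downward and 1.72% together. In 27 members the lines did not overlap, 9 higher and 18 lower in line A, where 54.8% of all genes did not (19.1% higher and 35.7% lower). With median-ratio scaling the members split into 2 higher and 4 lower, and all genes into 608 higher and 405 lower in place of 469 and 618, so the balance of directions depended on scaling. CBS, which commits homocysteine to cysteine synthesis, was at 84.4 and 79.4 TPM in line A against 116 and 109 TPM in line B, lower by 0.46 ± 0.0566 (adjusted p = 0.00319). GCSH (−0.45 ± 0.0693, adjusted p = 0.00889), AMT (−0.42 ± 0.0944, adjusted p = 0.0368) and PSAT1 (−0.39 ± 0.0616, adjusted p = 0.00991) were lower in line A, as were ODC1 (−0.23 ± 0.0429, adjusted p = 0.0174) and PHGDH (−0.20 ± 0.0474, adjusted p = 0.0441).

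Calls of BHMT, TYMS and CBS between the lines held whichever single library was left out. GCSH missed the threshold without line A replicate 1 (adjusted p = 0.0731), PSAT1 without replicate 1 of either line (0.0755 for line A and 0.0686 for line B) and ODC1 on leaving out any of the 4 primed libraries (0.0593 to 0.0981). AMT and PHGDH missed it on leaving out any primed or any MEF library (0.0627 to 0.173), and AMT, ODC1 and PHGDH also with median-ratio scaling (adjusted p = 0.0621, 0.0958 and 0.122). CHAC1, at 14.4 and 15.6 TPM in line A against 10.9 and 7.17 TPM in line B, narrowly did not pass (0.70 ± 0.173, adjusted p = 0.0501) and passed with median-ratio scaling (adjusted p = 0.0335) and without line B replicate 1 (0.0195, within 0.0195 to 0.190 over all alternatives). ASNS did not pass between the lines except without either feeder-free library (−0.27, adjusted p = 0.0455 and 0.0459).

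**Figure D5:**
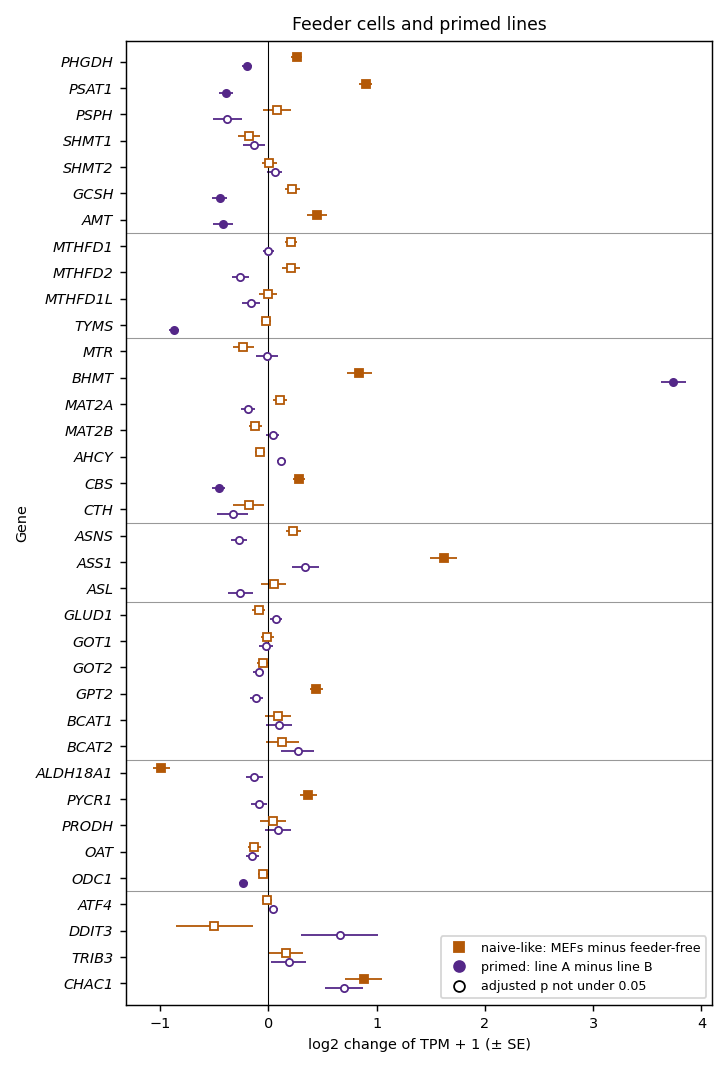
Log2 change of TPM + 1 with its standard error for each of 36 genes (vertical axis, grouped by role), for naive-like cells on MEFs minus feeder-free (squares) and primed line A minus line B (circles); filled symbols had an adjusted p under 0.05. BHMT between the lines, at 3.74, is the farthest point from 0, and ASS1 at 1.62 is the farthest for MEFs.

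The other lists are read against the 7.36% of all genes tested that passed between the lines. ALDH1L1 was at 17.2 and 16.1 TPM in line A against 8.80 and 8.58 TPM in line B and was higher in line A by 0.87 ± 0.0768 (adjusted p = 0.000499), one of 3 calls among 14 other folate genes. GART (−0.30 ± 0.0613, adjusted p = 0.0279) and GGH (−0.33 ± 0.0804, adjusted p = 0.0475) were lower, and both calls ended on leaving out any primed or any MEF library (adjusted p = 0.0620 to 0.189). Between 0 and 2 genes were called in each of the other lists: 2 of 20 tRNA synthetases, 2 of 19 methionine and polyamine genes, 2 of 20 stress regulators, 1 of 13 branched-chain genes, 1 of 10 glycine, serine and threonine genes and 0 of 10 glutamine, proline and arginine genes by limma, of which 4 had an unadjusted p under 0.05. PIPOX, which oxidises sarcosine, was the glycine gene and was named after its values were seen (2.94 TPM in line A against 1.02 TPM in line B, adjusted p = 0.0237). Among the rest SAT1 was higher in line A by 0.43 ± 0.0766 and DDIT4 by 0.29 ± 0.0454. BCKDHB (−0.39 ± 0.0697), APIP of methionine salvage (−0.36 ± 0.0589), YARS1 (−0.34 ± 0.0561), GARS1 (−0.30 ± 0.0558) and HSPA5 (−0.30 ± 0.0504) were lower. For each of these 7 calls there were at least 2 of the 4 primed libraries whose omission, singly, ended it (adjusted p = 0.0525 to 0.110).

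Across the 4 groups, the feeder-free naive-like libraries lay below all other libraries in 9 of 36 members, where 13.1% of all genes tested did. These were PSAT1, GCSH, MTHFD1, MTHFD2, ASS1, GPT2, PYCR1, TRIB3 and CHAC1. Line B lay above all others in 9 members (14.4% of all genes), among them PSAT1, PSPH, GCSH, MTHFD2, MTHFD1L and TYMS. Line A lay below all others in 8 members (15.7% of all genes) and above them in 4 (7.59%). Libraries on MEFs lay above all others in 6 members, PHGDH, AMT, MAT2A, CBS, ASNS and GPT2 (10.5% of all genes), and below them in ALDH18A1 (5.97%). The feeder-free libraries lay above all others in SHMT1, MTR, MAT2B, GLUD1 and ODC1, or 13.9% of members and 13.9% of all genes. These counts describe levels and were not tested.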

How the data were processed

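TPM values of 28475 genes in 8 libraries were deposited by the authors, and the submitters' processing notes name Salmon. Version, genome build and annotation: not given in the sources used here. All columns sum to 1000000 TPM, so a value depends on all other genes, and reads per gene are unknown; the labels' protocol gives a nominal 20 M paired-end reads per library. Columns were matched to samples by library name. Members and lists were chosen with earlier results of these data known.

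Values were transformed to log2(TPM + 1). A minimum of 1 TPM in 2 or more libraries left 14779 genes, 36 members among them. The test was limma 3.58.1 (R 4.3.3) with a variance trend, and two-sided p-values were adjusted over all genes tested (Benjamini-Hochberg, threshold 0.05). State was fitted as 4 against 4 libraries, and the other comparisons as contrasts in a fit of 4 groups. Folds are on the log2(TPM + 1) scale, which understates changes of low genes; ratios of means are in TPM. All members are named. Of the other lists, up to 4 genes per comparison were named, those with the smallest adjusted p among genes past 0.05 with a mean of at least 5 TPM. One gene named by the rule is not reported here. The procedure was tested on simulated data. Alternatives changed pseudocount, filter, scaling, variance trend, replicate block, libraries, subgroups and lines. Promoter motifs were not analysed here.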

Additional observations from a re-analysis of the deposited data

Results flagged for a closer look

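Of 74 sets of 4 libraries (37 genes in each state), 3 held a library far from the other 3 by the gap to its neighbour relative to the range, and chance marks about 1 in 20. GLUD1 stood at 479 TPM in feeder-free replicate 1, where the other naive-like libraries were at 424 to 427 TPM. ODC1 stood at 834 TPM in the same library. MAT2B stood at 54.6 TPM in line A replicate 2, where the other primed libraries were at 50.9 to 51.1 TPM.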

How the results depend on the processing

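With the libraries of each subgroup averaged, 5 members rose and 4 fell for state, and 2191 and 1832 of all genes. For feeder-free against primed cells, 7 members rose both after rescaling without ribosomal RNA genes and with the groups compared alone. For MEFs, 194 of all genes fell with no filter and 211 with no variance trend; with the 4 naive-like libraries alone 3 members rose, 138 of all genes rose and 97 fell. Between the lines, 2 members were higher in line A with quantile normalization, rescaling without ribosomal RNA genes, median-ratio scaling, a pseudocount of 5 or a filter at a mean of 5 TPM; 4 were lower with median-ratio scaling or quantile normalization; and 405 of all genes were lower with median-ratio scaling. With the primed libraries alone 3 members were lower, and 209 of all genes were higher and 211 lower. Leaving out each library in turn gave 6 to 12 members that fell for state. For MEFs it gave 2 to 8 members that rose, and 125 to 438 rises and 64 to 253 falls among all genes. Between the lines it gave 1 to 2 members higher and 2 to 8 lower, and 171 to 492 higher and 182 to 721 lower among all genes. Lines A and B reversed TYMS and BHMT: against line A alone TYMS was higher by 0.22 in all naive-like and 0.23 in feeder-free cells, and against line B alone BHMT was higher by 1.73 and 1.32.

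With the replicate number as a block, 8 members rose and 9 fell for state, 11 and 16 for feeder-free cells, 8 and 1 for MEFs, and 1 and 6 between the lines. Deviations of same-numbered libraries correlated at −0.0748 to 0.0973, so no effect shared by number was seen. Correlations near 0 cannot tell if same-numbered libraries were handled together. With 2 libraries a group, precision rests on the spread shared by the groups, and the number of reads behind low genes such as GLDC, TRIB3 and DDIT3 is unknown.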
